A study of Mus musculus with 6 samples.

Results

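ATP-binding cassette (ABC) proteins share a nucleotide-binding domain that turns over ATP. Most sit in a membrane and move lipids, drugs, conjugated anions, peptides or metal cofactors across it, while members of subfamilies E and F carry no membrane domain and act on the ribosome. In cells that take up dying cells, ABC lipid exporters are best known for sending out the cholesterol that arrives with the meal. Members were taken by gene symbol, the letters Abc followed by a subfamily letter from a to g and a number, which gave 50 of the 53735 features in the table. Of these 50, 41 had at least 1 count and 31 had enough counts to be tested.

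The cells were wild-type (wt) mouse bone marrow stromal cells, sorted as lineage-negative, CD45-negative, CD31-negative and CD51-positive, grown at 2% oxygen and taken at passage 2 or 3. In the fed group each well received 5000000 dye-labelled apoptotic mouse thymocytes for 24 h at 5% oxygen, and cells carrying the dye were sorted. Control wells received no thymocytes and were also sorted, but could not be selected for dye from thymocytes. Feeding and selection by the dye therefore cannot be told apart. The labels give neither the oxygen level of the control wells in the last 24 h nor the age of the animals, and are silent on whether the 3 libraries per group stem from different cultures or animals. The p-values therefore reflect library-to-library spread alone, which may be technical.

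The 6 libraries, 3 control and 3 fed, held 19069074 to 22410047 counts. The groups parted on the first principal component (56.3% of the variance), and control replicate 3 lay apart from the other control libraries on the second (14.3%). Levels are given as CPM, counts relative to the library total after TMM scaling. The 10 stromal markers summed to 34560 to 35630 CPM in control and 30670 to 32370 CPM in fed libraries. Most of that sum came from Col1a1 and Col1a2, with control means of 19410 and 12550 CPM and fed means of 17820 and 11000 CPM. The markers did not move as one. Of the 10, 6 were called lower, Nt5e was called higher (log2 fold change 0.47) and 3 (Itgav, Lum and Dcn) were not called, where 39.5% of all genes tested were called. The 14 thymocyte markers summed to 0.417 to 0.896 CPM in control and 0.782 to 1.88 CPM in fed libraries, with Cd3g, Rag2 and Ptcra at 0 throughout. In all control libraries 8 of the 14 were at 0, and in all fed libraries 4. Rag1 had a mean of 0.049 CPM in control and 0.384 CPM in fed libraries. Cd8b1 was at 0 in control and at 0.088 to 0.149 CPM in fed libraries, from 7 counts in all. By counting error alone, a count of 0 in a control library allows up to 3 counts, or 0.139 to 0.158 CPM. The fed values of Cd8b1 lie within or below that range. Lck went the other way, from 0.560 to 0.353 CPM (not called). The 8 macrophage markers summed to 13.8 to 15.1 CPM in control and 19.3 to 20.9 CPM in fed libraries. Lyz2 (log2 fold change 1.17, adjusted p = 1.61e-06) and Cd14 (0.32, 0.0490) were called higher. Mean Lyz2 was 3.32 CPM in control and 7.47 CPM in fed libraries. Csf1r (log2 fold change -0.09, adjusted p = 0.596) and Cd68 (0.18, 0.628) were not called. Adgre1 was at 0 in control and at 0.132 to 0.248 CPM in fed libraries, from 11 counts in all, and Fcgr1 was at 0 throughout. The 6 endothelial markers summed to 2.67 to 3.50 CPM over both groups, with Cdh5, Emcn and Tie1 at 0. The part of these other cells in the results was not tested, and in bulk RNA fewer cells of a type cannot be told apart from less RNA per cell.

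Of the 31 ABC genes tested, 8 rose and 4 fell in fed cells at a Benjamini-Hochberg adjusted p under 0.05 by edgeR's quasi-likelihood test. That is 38.7% of the members, against 39.5% of all 13092 genes tested, of which 20.5% were higher and 19.0% lower. As a family, ABC genes were thus called about as often as other genes, and their median log2 fold change of -0.02 lay near the -0.01 of all genes tested. Calls went both ways. Genes of drug and organic anion exporters, of mitochondrial transporters and of ribosome factors made up all 8 that rose, while the 4 that fell were the cholesterol exporter gene Abca1, the anion exporter gene Abcc5, the peroxisomal gene Abcd2 and the potassium channel subunit gene Abcc9. Changes were small, with only Abcb1a and Abcc9 past 1.5-fold. The groups did not overlap for 16 members, 9 higher and 7 lower, where 49.1% of all genes tested did not overlap (25.1% higher, 24.0% lower). The count of 8 higher became 5 without control replicate 2. The count of 4 lower became 2 without control replicate 1, 2 or 3 or fed replicate 3.

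**Figure D1:**
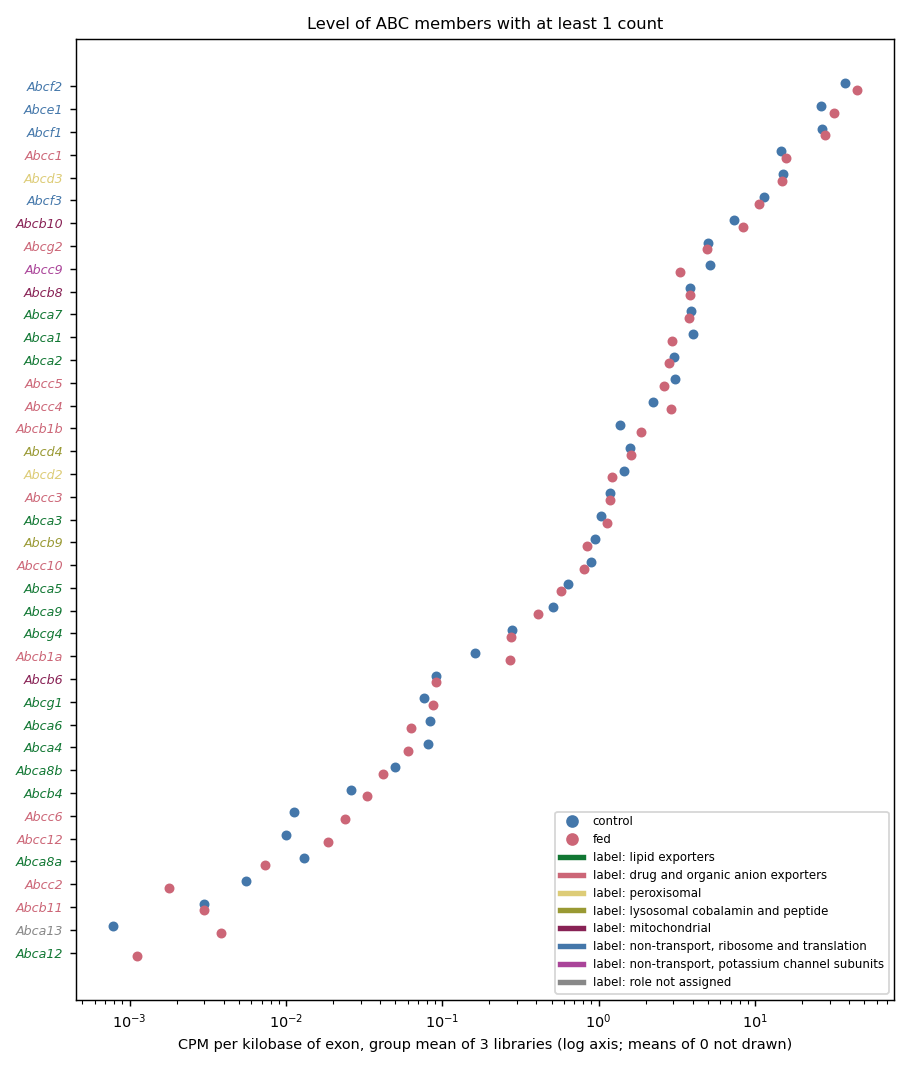
Level of 39 of the 41 ABC genes with at least 1 count, as CPM per kilobase of merged exon, mean of 3 control (blue) and 3 fed (red) libraries, on a log axis; the colour of each gene name gives its role. Abcf2, Abce1 and Abcf1 stand highest, and most lipid exporter genes (green) lie in the lower part of the plot.

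On the scale of CPM per kilobase of exon, which allows genes to be compared, the ribosome-associated members were the most abundant. Abcf2 stood at 37.8 ± 0.422 CPM per kilobase in control and 45.1 ± 1.27 in fed cells (SD, n = 3). Abce1 (26.3 ± 0.956) and Abcf1 (26.7 ± 0.354) followed in control cells, and these neighbours did not differ beyond their spread there, whereas in fed cells Abce1 (31.9 ± 0.395) stood above Abcf1 (28.2 ± 0.604). Next came the anion exporter gene Abcc1 (14.6 ± 0.111) and the peroxisomal gene Abcd3 (15.2 ± 0.426), with Abcd3 the higher in control cells and Abcc1 the higher in fed cells (15.8 ± 0.468 against 14.9 ± 0.0943). Further down, Abcf3 and Abcb10 had 11.4 and 7.29 CPM per kilobase in control cells. Of the 31 tested members, 22 had a mean of at least 1 CPM per kilobase. Merged exons of all annotated transcripts set the length, so a gene with long or many transcripts, such as Abcc1 with 15092 bases, is placed lower than its main transcript alone would place it.

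In CPM not scaled by length, the 4 ribosome-associated genes held 36.2% ± 0.299 of all ABC reads in control and 39.4% ± 0.433 in fed cells. The 13 drug and organic anion exporter genes held 29.3% ± 0.142 and 29.7% ± 0.375. The 16 lipid exporter genes held 10.4% ± 0.325 in control and 8.74% ± 0.320 in fed cells. The whole family summed to 1141 ± 10.3 CPM in control and 1191 ± 15.4 CPM in fed cells.

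**Figure D2:**
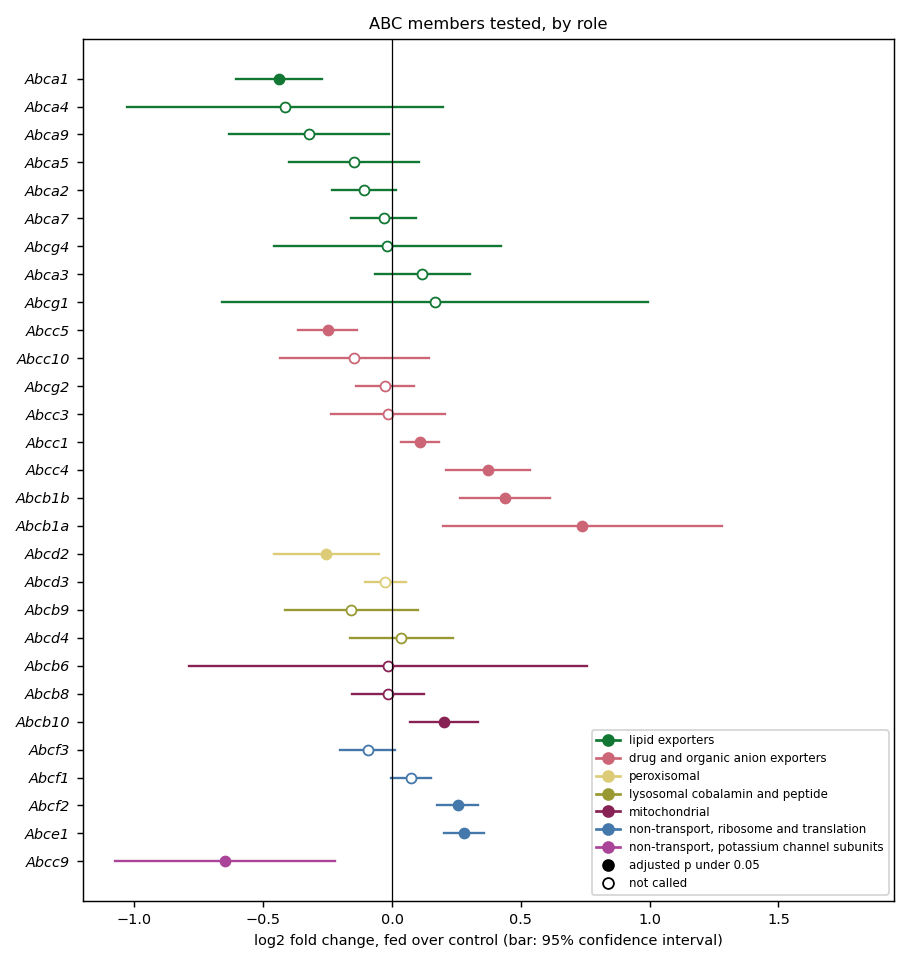
Log2 fold change of fed over control for 29 of the 31 tested ABC genes, with 95% confidence intervals, ordered and coloured by role; filled points passed an adjusted p under 0.05. Of 9 lipid exporter genes only Abca1 is filled. Of 8 drug and anion exporter genes, 4 are filled to the right of 0 and Abcc5 to the left. Of all genes tested, 20.5% were called higher and 19.0% lower.

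Among lipid exporters, 9 of 16 were tested and Abca1 was the only one called, where 39.5% of all genes tested were called. Abca1 encodes the transporter that hands cholesterol and phospholipid to lipid-poor apolipoprotein A-I, and its transcription is classically driven by liver X receptors, nuclear receptors for oxidised sterols. The gene lies on chromosome 4, 53030787 to 53159895, minus strand. Control libraries had 42.1, 44.2 and 38.1 CPM and fed libraries 34.2, 27.2 and 30.5 CPM. Every fed library lay below every control library, and fed replicate 2 was the lowest. The log2 fold change was -0.44 ± 0.077 (SE, adjusted p = 0.00048), and over the alternatives, each library left out among them, it ran from -0.52 to -0.36 with the adjusted p staying at 0.00682 or less.

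The 250 bases before the start of Abca1 (chr4:53159896-53160145, GRCm38.p6, minus strand, from RefSeq) are shown because the gene fell while it carries a known sterol-responsive promoter. Capitals mark an E-box (CACGTG), bound by basic helix-loop-helix factors, 147 bases before the start, and a direct repeat on the opposite strand, GGTTA followed after 5 bases of any kind by GGTCA, 67 bases before it. The motifs do not overlap here.
Abca1: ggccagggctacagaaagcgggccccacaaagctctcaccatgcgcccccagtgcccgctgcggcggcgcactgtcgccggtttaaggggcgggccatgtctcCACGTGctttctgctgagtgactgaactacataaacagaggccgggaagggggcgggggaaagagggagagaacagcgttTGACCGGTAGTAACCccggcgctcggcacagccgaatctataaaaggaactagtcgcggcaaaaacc
Both strands were searched, and the letters of the repeat were chosen after this window had been seen. That repeat was found in 0.0457% of 32851 windows of this length in the RefSeq table, and the E-box in 6.02%. Among the 38 members with a window, only Abca1 held the repeat, while Abcc4, Abcf1, Abca8a and Abca15 also held the E-box. Apart from this description, no binding was measured here.

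The other lipid exporters did not pass. Abca7, linked to phagocytosis and phospholipid export, had 26.9, 26.3 and 25.3 CPM in control and 26.3, 26.4 and 24.1 CPM in fed libraries, with overlapping groups and a 95% interval of the log2 fold change from -0.16 to 0.09. Abca2, a transporter of endosomes and lysosomes, showed a log2 fold change of -0.11 (adjusted p = 0.161), although its groups did not overlap, at 25.0 to 25.6 CPM in control and 22.4 to 24.5 CPM in fed libraries. Abca3, the lamellar body transporter of lung surfactant, had 0.12 (0.308), Abca5, of lysosomes and endosomes, -0.15 (0.358), Abca9 -0.32 (0.0948) and Abca4, the retinoid flippase of photoreceptors, -0.41 (0.280).

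Abcg1, which passes cholesterol to mature high-density lipoprotein and is the usual companion of Abca1 among liver X receptor targets, was scarce. It had 0.649, 0.803 and 0.211 CPM in control and 0.843, 0.460 and 0.617 CPM in fed libraries, from 4 to 17 counts each. Its interval, -0.66 to 0.99 on the log2 scale, spans the change seen in Abca1, so a like change was not detectable at this depth. Abcg4, a related sterol exporter, stood at -0.02 (adjusted p = 0.954). The summed level of the 16 lipid exporter genes was 118.2 ± 2.69 CPM in control and 104.0 ± 4.99 in fed cells. Without Abca1 it was 76.8 ± 0.435 and 73.4 ± 3.68 CPM, with fed libraries at 75.2, 75.8 and 69.2.

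Of the 13 drug and organic anion exporter genes 8 were tested, 4 rose and Abcc5 fell, where 20.5% of all genes tested rose and 19.0% fell. Without control replicate 2 or fed replicate 1, only 2 of the 8 rose, which is near that share. The pair Abcb1a and Abcb1b encodes P-glycoprotein, the efflux pump of many hydrophobic drugs, which is a single gene in humans. They are neighbours on chromosome 5 (Abcb1a at 8660077 to 8748575 and Abcb1b at 8798147 to 8866315), with Abcb4, the phosphatidylcholine floppase of bile, next in the row.

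Abcb1b was the main form. Control libraries had 10.4, 11.2 and 11.3 CPM and fed libraries 14.6, 16.4 and 13.6 CPM, with no overlap. The log2 fold change was 0.44 ± 0.084 (SE, adjusted p = 0.000288), between 0.36 and 0.51 over the alternatives, none of which lost the call. Abcb1a had 1.02, 0.945 and 0.685 CPM in control and 1.74, 1.66 and 1.10 CPM in fed libraries, from 13 to 36 counts each. Its groups lay close, with the lowest fed library just above the highest control library. Its log2 fold change, the largest of the family, was 0.74 ± 0.26 (adjusted p = 0.0289). DESeq2 (0.106) did not make that call, nor did fits leaving out control replicate 2 (0.0597) or 3 (0.101), or fed replicate 1 (0.102) or 2 (0.106). Of the 50-base stretches of the longest Abcb1a transcript, 15.5% also occur in Abcb1b, and 18.0% the other way round, so how reads from those stretches were assigned is uncertain. The pair summed to 11.8 ± 0.385 CPM in control libraries and 16.4 ± 1.70 CPM in fed ones.

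The 250 bases before Abcb1b (chr5:8797897-8798146, GRCm38.p6, plus strand, from RefSeq) are given because this gene carries most of the P-glycoprotein signal. Capitals mark CCAAT, also found as ATTGG on the opposite strand, and the GC box GGGCGG, classic elements of promoters of this kind, at 87, 66 and 48 bases before the start, with no overlap among them.
Abcb1b: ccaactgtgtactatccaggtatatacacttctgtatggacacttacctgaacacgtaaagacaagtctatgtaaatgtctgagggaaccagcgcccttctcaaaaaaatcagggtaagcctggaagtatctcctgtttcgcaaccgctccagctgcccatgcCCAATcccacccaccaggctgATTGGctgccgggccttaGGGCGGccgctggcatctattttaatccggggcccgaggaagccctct
Matches to CCAAT on either strand occur in 33.8% of all windows and to GGGCGG in 32.7%, so both are common.

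Members of subfamily C that export conjugates and nucleotides went both ways. Abcc4, which exports cyclic nucleotides, prostaglandins and urate, had 13.7, 13.7 and 15.7 CPM in control and 19.6, 16.8 and 19.2 CPM in fed libraries. No fed library fell to the control range, and the log2 fold change was 0.37 ± 0.079 (adjusted p = 0.000793), from 0.33 to 0.44 over the alternatives. Abcc5, another exporter of cyclic nucleotides, had 33.1, 33.2 and 32.7 CPM in control and 29.2, 27.1 and 27.1 CPM in fed libraries. The control libraries were nearly level and all fed libraries lay below them, giving a log2 fold change of -0.25 ± 0.055 (adjusted p = 0.00116).

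Abcc1, the multidrug resistance protein that exports glutathione conjugates and leukotrienes, was the most abundant exporter gene. It had 219, 221 and 222 CPM in control and 246, 235 and 234 CPM in fed libraries. All fed libraries were higher, but by little, with a log2 fold change of 0.11 ± 0.036 (adjusted p = 0.0216). Leaving out control replicate 1 (0.0547) or 2 (0.0689), or fed replicate 1 (0.0926), ended the call. Abcg2, a urate and xenobiotic exporter also known as a marker of side-population stem cells, stood at 41.1 ± 2.90 CPM in control and 40.3 ± 0.400 in fed cells. Its interval of the log2 fold change, -0.14 to 0.09, leaves room only for small changes. Abcc3 (-0.02, adjusted p = 0.919) and Abcc10 (-0.15, 0.428) were also not called.

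**Figure D3:**
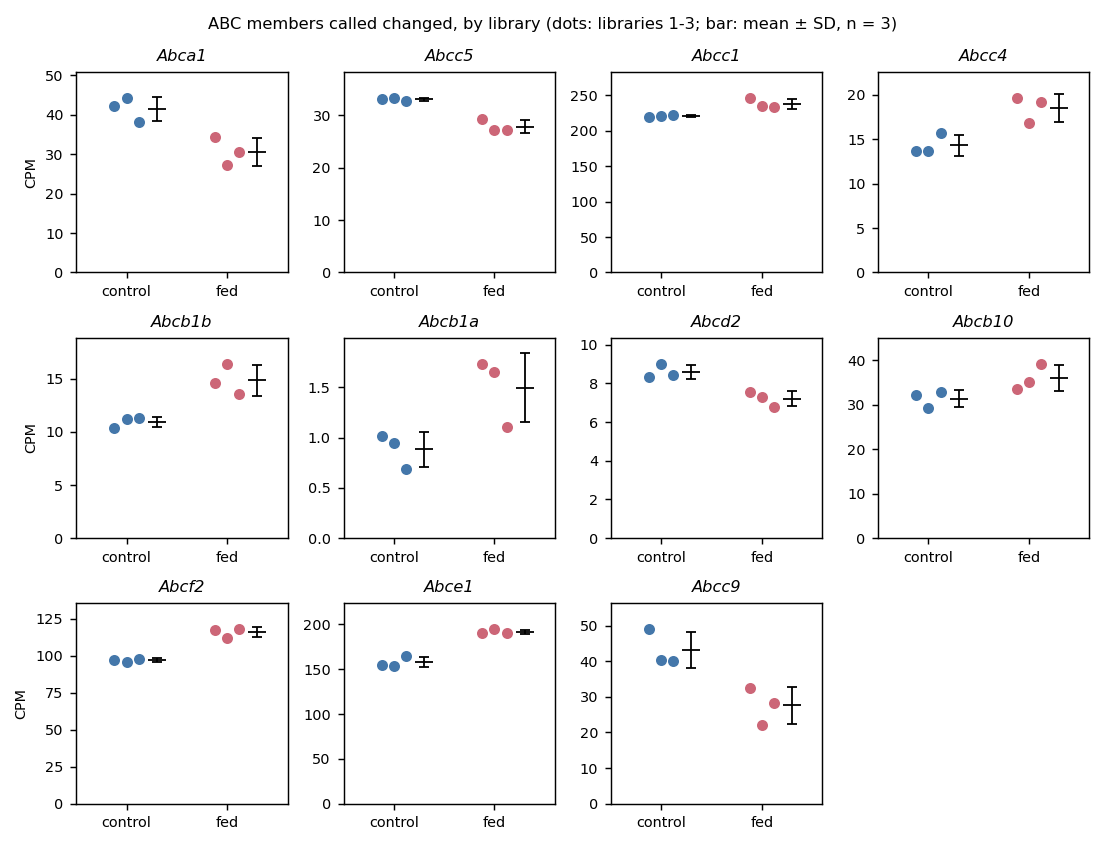
CPM of 11 of the 12 ABC genes called changed, by library (dots, control blue and fed red, with mean and SD of 3 libraries); each axis starts at 0. The groups do not overlap in any of the 11 panels, with Abcb10 the closest to doing so.

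In peroxisomes, transporters of subfamily D carry fatty acids as coenzyme A esters into the organelle for oxidation. Abcd2 prefers unsaturated very long-chain acids, and Abcd3 handles branched and dicarboxylic acids. Abcd2 had 8.34, 9.02 and 8.43 CPM in control and 7.53, 7.31 and 6.78 CPM in fed libraries. All fed libraries were lower, with a log2 fold change of -0.26 ± 0.097 (adjusted p = 0.0428). This call was lost in each of 6 fits that left out a library, at 0.0594, 0.149 and 0.0540 without control replicates 1, 2 and 3 and at 0.0515, 0.0833 and 0.148 without fed replicates 1, 2 and 3, as well as by DESeq2 (0.163). Abcd3 was far more abundant, with 100.6, 97.4 and 103 CPM in control and 98.9, 99.0 and 97.9 CPM in fed libraries. The groups overlapped, and its log2 fold change of -0.03 has an interval of -0.10 to 0.05.

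The remaining member of subfamily D, Abcd4, works in the lysosome, where it helps release vitamin B12. It had 12.2, 14.2 and 11.5 CPM in control and 11.4, 13.1 and 14.4 CPM in fed libraries, groups that overlapped (log2 fold change 0.04, adjusted p = 0.792). Abcb9, the lysosomal peptide transporter, had 5.28 ± 0.519 and 4.73 ± 0.225 CPM (-0.16, adjusted p = 0.329).

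Mitochondrial members belong to subfamily B, and 2 of 4 rose, beside 20.5% of all genes. Without control replicate 2 or fed replicate 3 only 1 of 4 rose, which is near that share. Abcb10, an inner membrane transporter tied to haem synthesis, lies on chromosome 8, 123952459 to 123983122. It had 32.2, 29.2 and 32.8 CPM in control and 33.6, 35.1 and 39.2 CPM in fed libraries. Fed replicate 1 and control replicate 3 were nearly level, fed replicate 3 stood highest, and the log2 fold change was 0.20 ± 0.063 (adjusted p = 0.0163). That call was lost without control replicate 2 (0.113) or fed replicate 3 (0.126). Abcb8, an inner membrane protein linked to iron export and a potassium channel, had 18.3 ± 1.08 and 18.1 ± 0.463 CPM, with an interval of -0.16 to 0.13.

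Abcb6, a porphyrin transporter, had only 8 to 13 counts in each library. Of the 50-base stretches of its longest transcript, 66.8% are also annotated to the overlapping gene Gm29253 on the same strand, so its level is uncertain.

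**Figure D4:**
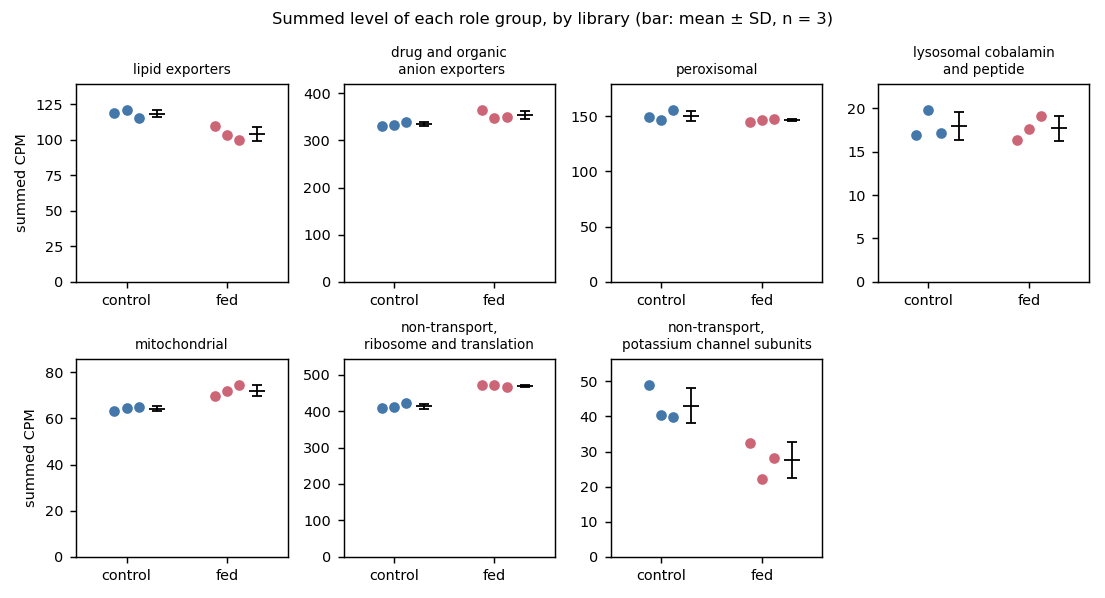
Summed CPM of the members of each role by library (dots, control blue and fed red, with mean and SD of 3 libraries); each axis starts at 0. The sums of lipid exporters and potassium channel subunits are lower in every fed library, those of drug exporters, mitochondrial members and ribosome factors are higher, and those of peroxisomal and lysosomal members overlap. The drug exporter sum (mean 334.2 CPM in control, 353.7 in fed) moves mostly with Abcc1 (220.9 and 238.2 CPM).

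Members without a transport function showed the smallest adjusted p of the family. Abce1 is an iron-sulphur protein that splits the ribosome after termination so that its subunits can be used again. The gene is on chromosome 8, 79683462 to 79711740, minus strand. Control libraries had 155, 154 and 165 CPM and fed libraries 190, 194 and 190 CPM. The fed libraries were close together and well above the highest control library. The log2 fold change was 0.28 ± 0.038 (adjusted p = 5.7e-06), from 0.26 to 0.31 over the alternatives. Abcf2, a cytosolic ATPase of the subfamily that acts on ribosomes, had 97.2, 95.9 and 98.0 CPM in control and 117.6, 112.0 and 117.7 CPM in fed libraries. Its groups were also well apart, with a log2 fold change of 0.26 ± 0.038 (adjusted p = 2.04e-05).

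The 250 bases before Abce1 (chr8:79711741-79711990, GRCm38.p6, minus strand, from RefSeq) are shown because it had the smallest adjusted p of all ABC genes. Capitals mark the cAMP response element TGACGTCA, the site of CREB and ATF factors, 10 bases before the start, and ATTGG (the opposite-strand reading of CCAAT) 28 bases before it, with no overlap.
Abce1: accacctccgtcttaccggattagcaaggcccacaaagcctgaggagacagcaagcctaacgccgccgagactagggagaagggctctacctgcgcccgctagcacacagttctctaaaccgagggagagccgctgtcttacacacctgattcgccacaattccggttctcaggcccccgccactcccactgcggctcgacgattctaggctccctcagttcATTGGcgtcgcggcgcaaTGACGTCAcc
The element TGACGTCA was found in 1.55% of all windows and, among ABC genes, also before Abcg2, which was not called.

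The other ribosome factors did not pass. Abcf1, which promotes translation initiation through eIF2, had 116 to 119 CPM in control and 121 to 126 CPM in fed libraries, without overlap and with a log2 fold change of 0.07 (adjusted p = 0.122). Scaled by library totals only, it was called higher (0.10, adjusted p = 0.0336). Abcf3 had 39.4 to 42.1 CPM in control and 37.2 to 38.9 CPM in fed libraries, a log2 fold change of -0.09 (adjusted p = 0.149). These 4 genes summed to 413 ± 6.89 CPM in control libraries and 469 ± 2.75 CPM in fed ones.

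Abcc9 encodes the sulfonylurea receptor SUR2, the regulatory subunit of ATP-sensitive potassium channels in smooth muscle and a marker of pericytes. It lies on chromosome 6, 142587862 to 142702315. Control libraries had 48.9, 40.5 and 39.9 CPM and fed libraries 32.4, 22.2 and 28.3 CPM. No fed library reached the control range, but both groups were spread widely, with control replicate 1 high and fed replicate 2 low. The log2 fold change, the most negative of the family, was -0.65 ± 0.16 (adjusted p = 0.0327). Leaving out any control replicate (0.0643, 0.0621 and 0.0614 for 1, 2 and 3) or fed replicate 3 (0.0961) ended the call, while the fold change stayed between -0.77 and -0.51 over all alternatives. With all 6 libraries the adjusted p depended on the method. It was 0.000186 in a non-robust fit, 0.000172 by limma-voom and 0.00203 by DESeq2, but 0.0297 with upper-quartile scaling and 0.0331 with library totals only. The related subunit gene Abcc8 had no count. The pore that Abcc9 joins in smooth muscle is encoded by Kcnj8, which had 22 counts over the 6 libraries, and the other pore gene, Kcnj11, had 0, so neither could be tested.

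Of the 50 members 19 could not be tested. There were 9 with no count in any library, namely Abca14, Abca15, Abca16, Abca17, Abcb5, Abcc8, Abcg3, Abcg5 and Abcg8. A count of 0 allows up to 3 counts, or 0.132 to 0.158 CPM depending on the library, and covers counting error only. Abcg5 and Abcg8, which lie head to head on chromosome 17 and together form the sterol exporter of liver and gut, are among them. The other 10 had between 1 and 50 counts in all. Of these Abca6 (50 counts), Abca8b (43) and Abcb4 (35) had the most. Abcc6, whose loss causes ectopic mineralisation because less ATP and hence less pyrophosphate reaches the circulation, had 13 counts, Abcc12 had 12 and Abca8a 8. Abca13 (6), Abcc2 (4), Abcb11 (2) and Abca12 (1) complete the set.

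**Figure D5:**
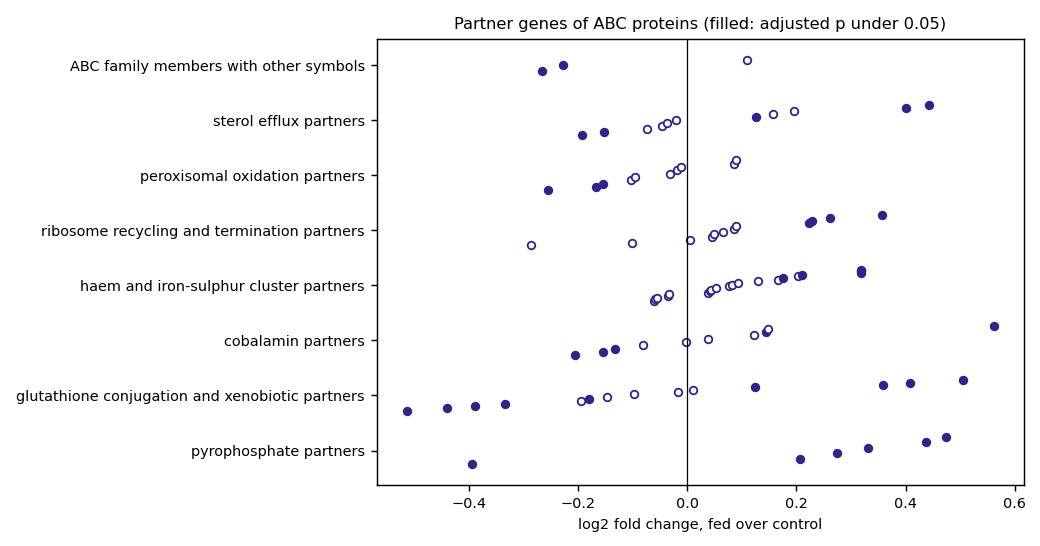
Log2 fold change of fed over control for tested genes linked to ABC proteins or their pathways, in 8 lists chosen with earlier results of these data known. Each point is a gene, filled where the adjusted p was under 0.05. Pyrophosphate partners are filled at every point, 5 to the right of 0 and Alpl to the left, and glutathione partners are filled on both sides.

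Genes linked to the ABC proteins or to the pathways they serve were taken from 9 lists, 8 of which had tested members. Their counts stand beside 39.5% of all genes called, 20.5% higher and 19.0% lower. Among family members with other symbols, the peptide transporters of antigen presentation Tap1 and Tap2 both fell (log2 fold changes -0.23 and -0.27), and the chloride channel Cftr had 0.11 (adjusted p = 0.818). By DESeq2, with library totals only, or on leaving out control replicate 3 or fed replicate 1 or 3, only 1 of them fell. Of 11 sterol efflux partners tested, 3 rose and 2 fell. The high-density lipoprotein receptor gene Scarb1 rose from 52.9 ± 0.668 to 69.8 ± 2.00 CPM. Nr1h3, liver X receptor alpha, rose by 0.44 on the log2 scale from a low 5.31 ± 0.710 CPM. Nr1h2, liver X receptor beta, stood at 63.6 ± 3.44 CPM in control and fell by 0.19. Npc2, which binds cholesterol in the lysosome, fell by 0.15.

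Of 10 peroxisomal oxidation partners tested, 3 fell. Among them Scp2, a thiolase and sterol carrier, fell from 73.2 ± 2.58 to 65.2 ± 3.33 CPM, and Acsl1, an acyl-CoA synthetase, from 58.0 ± 2.97 to 52.1 ± 1.84 CPM. Of 12 ribosome recycling and termination partners tested, 4 rose. The initiation factor gene Eif2s1 rose by 0.36, the release factor gene Gspt1 by 0.23, Eif6, which keeps ribosomal subunits apart, by 0.26 and Eif3j1, an initiation factor that helps recycling, by 0.22. The release factor gene Etf1 had 0.09 (adjusted p = 0.0890), and the rescue factor genes Pelo and Hbs1l had 0.07 (0.636) and 0.01 (0.938).

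Of 20 haem and iron-sulphur partners tested, 4 rose, and 2 did so without control replicate 2 or by DESeq2. Among them were Alad of haem synthesis, higher by 0.32 on the log2 scale, and Glrx5 and Lyrm4 of iron-sulphur assembly, higher by 0.18 and 0.32. Of 10 cobalamin partners tested, 2 rose and 3 fell. Mtrr, which reactivates methionine synthase, rose from 15.1 ± 0.279 to 22.3 ± 1.80 CPM, and Mmadhc rose by 0.14. Tcn2, the B12 carrier of plasma, fell by 0.15, Mtr by 0.13 and Mmab by 0.21. DESeq2, or leaving out control replicate 1 or 2 or fed replicate 2, left 1 higher call. DESeq2, scaling by library totals only, or leaving out control replicate 1 or 2 or fed replicate 3, left 1 lower call, and leaving out fed replicate 2 left 0.

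Of 14 glutathione and xenobiotic partners tested, 4 rose and 5 fell. The rate-limiting glutathione synthesis gene Gclc rose from 18.2 ± 1.39 to 25.8 ± 0.311 CPM. The glutathione transferase genes Mgst1 and Gstt1 fell by 0.51 and 0.44, and Ahr, the receptor for aromatic pollutants, fell by 0.39. All 6 pyrophosphate partners tested were called, 5 higher and Alpl lower. The list was chosen with earlier results of these data known, so this share is not an independent result. Abcc6, the ABC member tied to pyrophosphate, had too few counts to be tested. The pyrophosphate transporter gene Ank rose by 0.33, Nt5e, which makes adenosine, by 0.47 and the phosphate importer gene Slc20a2 by 0.44, while Alpl, the phosphatase that breaks pyrophosphate down, fell from 799 ± 63.5 to 608 ± 19.9 CPM. Macrophage marker sums were higher in fed libraries, and the part of such cells in these lists was not tested.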

How the data were processed

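RNA was measured by stranded, polyadenylated RNA sequencing in 3 control and 3 fed libraries from 200 ng of RNA, per the labels' protocols. The authors deposited a table of raw counts, 1 row per gene symbol. Tools named in the submitters' processing notes are STAR 2.6.0c, Subread 1.6.1 (featureCounts), Trimmomatic 0.36 and MultiQC 1.5, with genome build GRCm38. Annotation release, strand setting and treatment of multiply matching reads: not given in the sources used here, so genes with close copies or overlapping neighbours are less certain.

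The fit used edgeR 4.0.16 (R 4.3.3): filterByExpr, TMM scaling and the robust quasi-likelihood F-test on all 13092 genes kept, with Benjamini-Hochberg adjustment over all of them, no replicate block, and a threshold of 0.05. CPM are relative to the TMM-scaled library total. Standard errors come from the F statistic, and intervals are 95%. Coordinates and merged exon lengths come from GENCODE M21. Names that read as dates, 27 features with 0.227% of the counts, stayed in the fit. Library pairs within a group differed by more than sampling noise (chi-square per gene of 2.57 to 5.80).

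Alternatives were other scalings and filters, DESeq2 1.42.0, limma-voom (limma 3.58.1), a non-robust fit, a replicate block, a threshold of 0.01 and each library left out. Members, role groups, partner lists and markers were chosen with earlier results of these data known. Per-library values are given for called members and for the most abundant member of each role, and up to 4 called genes of each partner list are named by smallest adjusted p; genes named beyond that were chosen after their values were seen. A few genes are counted in the totals but not reported here by name.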

Additional observations from a re-analysis of the deposited data

How the results depend on the processing

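Among 462 values of 29 tested ABC genes under the alternatives, 411 kept direction and side of the threshold, 28 lost a call, 1 gained one and 22 changed sign. None of the 11 called genes among them changed sign. Of the 12 called genes, 7 kept their call in every fit without one of the libraries. Over those fits, 2179 to 2623 genes of the whole table were called higher and 1966 to 2465 lower. Members higher ran from 5 to 7 and lower from 2 to 3, drug and organic anion exporters higher from 2 to 4, mitochondrial higher from 1 to 2, potassium channel subunits lower from 0 to 1 and peroxisomal lower at 0. At an adjusted p under 0.01, 5 members were higher and 2 lower, with 2 drug exporters and 1 mitochondrial member higher and 0 peroxisomal members or channel subunits lower. The peroxisomal call was also lost (0) with library totals only, with at least 1 count over all libraries as the filter, and by DESeq2. With library totals only, 3183 genes were called higher and 2029 lower, and these uncalled genes changed sign: Abcb6 (0.015), Abcb8 (0.017), Abcc3 (0.016), Abcd3 (0.006), Abcg2 (0.005) and Abcg4 (0.014). Over the fits without a library, uncalled genes that changed sign ran from -0.056 to 0.013 (Abca7), -0.258 to 0.113 (Abcb6), -0.050 to 0.032 (Abcb8), -0.054 to 0.024 (Abcc3), -0.049 to 0.128 (Abcd4), -0.189 to 0.516 (Abcg1), -0.069 to 0.030 (Abcg2) and -0.081 to 0.067 (Abcg4). With library totals only, the median log2 fold change of all genes tested was 0.025, against -0.0066 in the main fit. Apart from that scaling, the stricter threshold and the fits with fewer libraries, the cause of these shifts was not tested. The labels do not say whether replicate numbers pair the libraries, and pairing was not established. Correlations of deviations between libraries of the same number were 0.101, 0.022 and 0.128. On the second principal component both groups fell with replicate number, at 9.93, 5.39 and -15.8 in control and 7.46, -0.437 and -6.51 in fed libraries. Whether libraries of the same number share a batch was not tested. With the replicate block 8 members were higher and 4 lower. Of all genes, 2989 were higher and 2859 lower with it, against 2682 and 2493 in the main fit. Depth limits Abcb1a, Abcb6, Abcg1 and Abca4 most.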
